A study of Mus musculus with 6 samples.

Results

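The insulin-like growth factor (IGF) axis was followed through 9 of the 39179 genes counted in the sensory epithelia of the newborn mouse inner ear. The members were taken by name: the ligand Igf1, its receptor Igf1r, the binding proteins Igfbp2, Igfbp3, Igfbp4, Igfbp5, Igfbp6 and Igfbp7, and the related Igfbpl1. All 9 were matched to an Ensembl gene and passed the filter on low counts. The cochlea, the hearing organ, was compared with the vestibule, the balance organ, in 3 RNA-seq libraries each. Both groups were wild-type C57Bl/6J mice at P0 with males and females pooled, and no treatment separated them. Each library was made with a stranded mRNA kit from 450 ng of total RNA, and its source is given as 20 organs, which is 10 mice. A library is thus a pool and holds no spread between animals. The paper names 20 inner ears from 10 mice as the source of both epithelia, so the organs can share animals. It does not say whether each library had mice of its own. Nothing in the labels says that the libraries of a tissue came from separate dissections, so the p-values below measure the spread between libraries, which may be technical.

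IGF-1 is a secreted growth factor that binds the receptor tyrosine kinase IGF1R and signals through the PI3K-Akt and Ras-MAPK branches to growth, survival and differentiation. The IGF-binding proteins hold the ligand outside the cell, where they can lengthen its life, keep it from the receptor or bring it to it, and proteases such as PAPP-A2 release it by cutting them. In the inner ear IGF-1 is known from loss-of-function mice and patients with deafness, in whom the cochlea and its ganglion mature late or poorly.

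Between 24464483 and 33664793 counts fell on genes in a library, and 1 CPM, the unit that scales a count to this total, stood for 24.5 to 33.7 counts. Libraries of a tissue differed by more than sampling noise, with a chi-square per degree of freedom of 31.0 to 111 over 6 pairs against 169 to 338 over the 9 pairs between tissues, and none was a duplicate. Hair cell markers were counted in both tissues, summing to 766 to 891 CPM in the cochlea and 1119 to 1361 CPM in the vestibule, and none of the 12 was at 0. Of these 12, 5 were higher in the vestibule and 2 in the cochlea. In place of these 7 calls 4 were made without cochlea replicate 1 or vestibule replicate 2, and 8 without cochlea replicate 3 or vestibule replicate 3. Cochlea replicate 3 stood apart in skeletal muscle markers, which summed to 280 CPM there against 4.91 CPM in the lowest cochlear library and 8.97 to 26.9 CPM in the vestibule. Without that library the log2 fold changes of Igf1, Igfbp2, Igfbp5 and Igfbp7 were -1.55, 1.61, -1.51 and 1.57, and all 4 were still called in the test between the organs. In bulk RNA, fewer cells of a type and less RNA per cell cannot be told apart.

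Igfbp2, Igfbp3, Igfbp4 and Igfbp5 share a short stretch with a run of cysteines in the N-terminal part of the protein, the part that holds the IGF-binding domain. It is shown because it lets a reader see how alike genes are that differed between the organs in opposite directions. It was searched in the coding sequences of the 7 binding protein genes as GGNTGNGGNTGNTGNNNNNNNTGN, read in frame on the coding strand, and was found in these 4 of the 7. The letters were not found in Igfbp6, Igfbp7 or Igfbpl1. All 4 lie in the coding part of exon 1 of the gene, with the capitals marking the fixed bases of the pattern. In GENCODE vM21 on GRCm38 they lie at chr1:72824769-72824810 on the plus strand for Igfbp2, chr11:7213557-7213598 on the minus strand for Igfbp3, chr11:99041641-99041682 on the plus strand for Igfbp4 and chr1:72873957-72873998 on the minus strand for Igfbp5.
Igfbp2: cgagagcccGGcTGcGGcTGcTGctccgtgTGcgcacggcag
Igfbp3: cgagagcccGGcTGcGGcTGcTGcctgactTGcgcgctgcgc
Igfbp4: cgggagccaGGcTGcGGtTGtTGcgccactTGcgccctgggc
Igfbp5: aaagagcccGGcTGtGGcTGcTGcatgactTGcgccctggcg
Over the 24 bases of the pattern, Igfbp3 and Igfbp5 were identical at 22, and Igfbp2 and Igfbp5 at 17, the fewest of the 6 pairs. Igfbp3 and Igfbp4 were identical at 19, and Igfbp2 and Igfbp4, Igfbp2 and Igfbp3, and Igfbp4 and Igfbp5 at 18 each. The pattern itself fixes 12 of the 24 bases, so these were the same in every pair by the search. Of these same 4 genes, Igfbp3 and Igfbp5 were higher in the cochlea and Igfbp2 and Igfbp4 in the vestibule, as described below. The most alike pair shared a direction, while Igfbp2 and Igfbp4, which also did, were less alike than Igfbp3 and Igfbp4, which did not.

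Most of the 9 members differed between the organs, and they did so in both directions. Genes were called at a false discovery rate of 0.05 by the quasi-likelihood (QL) test of edgeR, adjusted by Benjamini and Hochberg over the 14723 genes that reached 1 CPM in 3 libraries. Fold changes come from that fit after TMM scaling, whereas CPM values carry no TMM scaling, so a fold change can differ from the ratio of the CPM means beside it. Of the 9 members 8 were called, where 27.4% of all genes tested were. Igf1, Igfbp3, Igfbp5 and Igfbpl1 were higher in the cochlea, where 11.6% of all genes were, and Igfbp2, Igfbp4, Igfbp6 and Igfbp7 were higher in the vestibule, where 15.8% were. The libraries of the tissues did not overlap for the same 8 genes, which was so for 41.8% of all genes tested. The median size of the log2 fold change was 1.62 over the members and 0.32 over all genes. The members were chosen with earlier results of these data known, so setting them beside all genes is a description and no test. When cochlea replicate 2 or vestibule replicate 2 was left out, 5 members were called, and Igfbp3, Igfbp4 and Igfbpl1 were not.

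**Figure D1:**
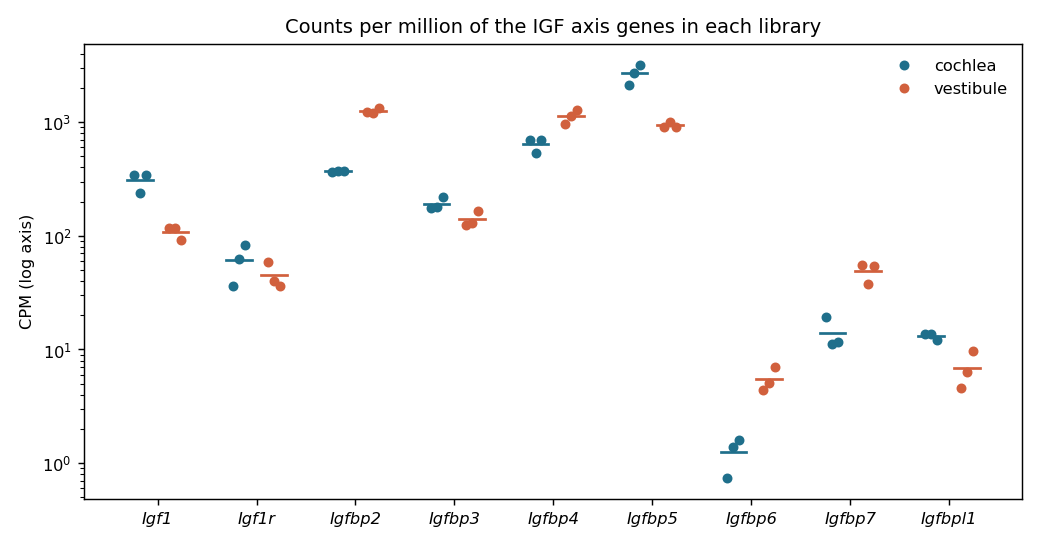
Level of each of the 9 members in CPM (log axis) in the 3 cochlear and 3 vestibular libraries, 1 point per library with a bar at the tissue mean. The libraries of the tissues do not overlap for 8 genes, and only Igf1r has mixed points.

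The ligand gene Igf1 lies on chromosome 10 at 87858265 to 87937042, plus strand (ENSMUSG00000020053; GRCm38, GENCODE vM21, as for all gene positions here). Its level was 341, 238 and 344 CPM in the cochlear libraries and 117, 117 and 92.1 CPM in the vestibular ones. Every cochlear library was above every vestibular one, and cochlea replicate 2 was the lowest of its tissue. The means were 308 CPM ± 59.9 (SD, n = 3) and 109 CPM ± 14.4 (SD, n = 3). On the log2 scale, vestibule minus cochlea, the fitted difference was -1.62, or 3.07-fold (SE 0.16, Benjamini-Hochberg adjusted p = 0.000133 by edgeR's QL test). It was called in all 15 alternatives of that fit, between -1.75 and -1.50.

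The 3 genes whose pattern over the 6 libraries was most like that of Igf1, by the root mean square difference of centred log2 CPM, were Bean1 (0.11), Hoxa2 (0.11) and Gal3st3 (0.13). All ran lower than Igf1 in every library, Bean1 from 1.69 to 6.19 CPM, Hoxa2, a homeobox transcription factor of the hindbrain and neural crest, from 0.942 to 3.70 CPM, and Gal3st3, a sulfotransferase, from 15.8 to 54.7 CPM. Each was lower in cochlea replicate 2 than in the other cochlear libraries, as Igf1 was.

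The receptor gene Igf1r, on chromosome 7 at 67952827 to 68233668 (ENSMUSG00000005533, plus strand), was the only member not called. It stood at 36.0, 62.4 and 83.8 CPM in the cochlea and at 58.9, 40.1 and 36.1 CPM in the vestibule. The tissues overlapped, and the highest cochlear library was 2.33 times the lowest. The means were 60.7 CPM ± 24.0 and 45.0 CPM ± 12.2 (SD, n = 3). The log2 fold change was -0.56 (SE 0.29, Benjamini-Hochberg adjusted p = 0.192 by edgeR's QL test). Without cochlea replicate 1, its lowest cochlear library, it was called at -0.84 (adjusted p = 0.0257, same test), and without cochlea replicate 3, its highest, the value was -0.29 (adjusted p = 0.448, same test). It was not called in any alternative but the first of these.

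Igf1r has the longest exon sequence of the members, 16791 bases in GENCODE vM21, and the spread of its libraries was set beside that of other long genes. The length that the authors scaled by was shorter, as given with the levels per length. From the mean log2 CPM of its tissue Igf1r departed by -0.67, 0.12 and 0.55 in cochlea replicates 1, 2 and 3 and by 0.42, -0.13 and -0.29 in vestibule replicates 1, 2 and 3. The median departure of the 1435 tested genes with more than 10000 exon bases was -0.11, -0.067 and 0.21 in the cochlea against 0.26, 0.013 and -0.25 in the vestibule. The highest library was the same in each tissue for both, cochlea replicate 3 and vestibule replicate 1, and so was the lowest, cochlea replicate 1 and vestibule replicate 3, while the signs differed in cochlea replicate 2 and vestibule replicate 2. Among the 6359 tested genes of 2000 to 5000 exon bases, the class of the shorter length that the authors scaled Igf1r by, the median departures lay between -0.044 and 0.057. The part of transcript length in the spread of Igf1r was not tested. Its nearest genes by the same measure as above were Notch1, the Notch receptor (0.070), Soga1 (0.095) and Kif26b, a kinesin (0.11), with exon lengths of 14232, 7984 and 14696 bases.

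**Figure D2:**
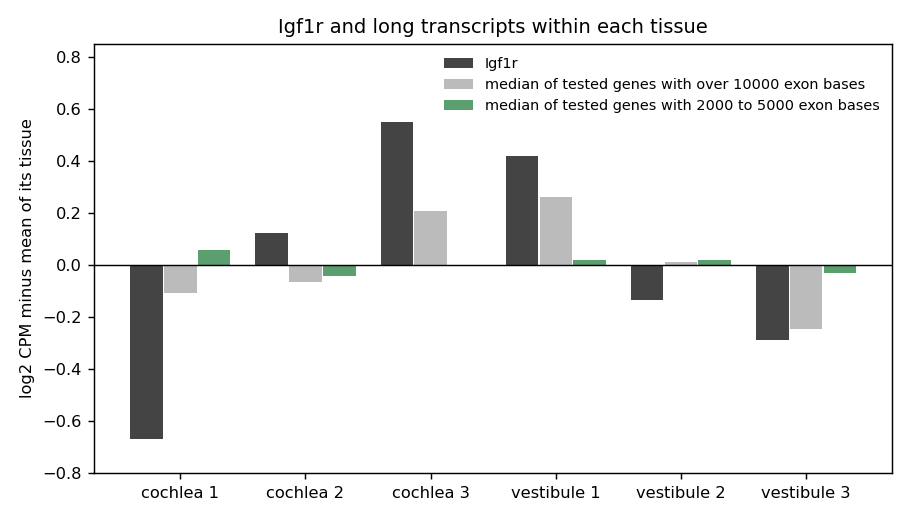
Departure of each library from its tissue mean (log2 CPM) as bars for Igf1r and for the medians of the tested genes with over 10000 and with 2000 to 5000 exon bases, in the 6 libraries. Igf1r runs from -0.67 in cochlea replicate 1 to 0.55 in cochlea replicate 3, the median of the longest genes from -0.25 to 0.26 and that of the shorter class from -0.044 to 0.057.

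Among the binding proteins higher in the cochlea, Igfbp5 led. This gene, on chromosome 1 at 72857932 to 72874884, minus strand (ENSMUSG00000026185), encodes a binding protein that sits in extracellular matrix. It reached 2143, 2725 and 3216 CPM in the cochlear libraries against 917, 1009 and 914 CPM in the vestibular ones. In the cochlea it alone took between 0.214% and 0.322% of all counts on genes, and its lowest cochlear library was far above its highest vestibular one. Its means were 2695 CPM ± 537 and 947 CPM ± 54.3 (SD, n = 3), with a fitted log2 fold change of -1.63 (SE 0.20, Benjamini-Hochberg adjusted p = 0.000408 by edgeR's QL test). It was called in all 15 alternatives, with -1.51 as the smallest size, without cochlea replicate 3.

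Igfbp3, on chromosome 11 at 7206086 to 7213923, minus strand (ENSMUSG00000020427), encodes the main carrier of IGFs in blood. It stood at 177, 181 and 219 CPM in the cochlea and at 125, 129 and 165 CPM in the vestibule. The highest vestibular library came close to the lowest cochlear one. The fitted difference was -0.57 on the log2 scale (SE 0.17, Benjamini-Hochberg adjusted p = 0.0360 by edgeR's QL test), beside means of 193 CPM ± 23.3 and 140 CPM ± 22.2 (SD, n = 3). Its call was lost without TMM scaling (-0.46, adjusted p = 0.0555 in the same test) and on leaving out any of cochlea replicates 1, 2 and 3 and vestibule replicates 1 and 2, with adjusted p between 0.0506 and 0.170 in the same test.

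Igfbpl1, on chromosome 4 at 45809468 to 45826923, minus strand (ENSMUSG00000035551), encodes a secreted relative of the family. It was low, at 13.8, 13.7 and 12.2 CPM in the cochlea against 4.60, 6.39 and 9.66 CPM in the vestibule, from 155 to 395 counts per library. The cochlear libraries lay close together and the vestibular ones spread, all below them. The means of 13.2 CPM ± 0.883 and 6.88 CPM ± 2.56 (SD, n = 3) went with a fitted log2 fold change of -1.05 (SE 0.29, Benjamini-Hochberg adjusted p = 0.0259 by edgeR's QL test). The call was lost without cochlea replicate 1 (-1.04, adjusted p = 0.0663), cochlea replicate 2 (adjusted p = 0.0901), vestibule replicate 1 (-0.79, adjusted p = 0.0631) or vestibule replicate 2 (-0.97, adjusted p = 0.107, all by the same test).

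Igfbp2 led the binding proteins higher in the vestibule. The gene lies on chromosome 1 at 72824503 to 72852474, plus strand (ENSMUSG00000039323), and its product is a major binding protein of fetal tissue and of the fluids around the brain. Its level was 367, 376 and 376 CPM in the cochlea against 1225, 1198 and 1324 CPM in the vestibule. Both tissues were tight, and the groups lay far apart. The means were 373 CPM ± 5.23 and 1249 CPM ± 66.1 (SD, n = 3), and the fitted log2 fold change was 1.63, or 3.09-fold (SE 0.15, Benjamini-Hochberg adjusted p = 8.25e-05 by edgeR's QL test). Over the 15 alternatives it stayed between 1.56 and 1.74 and was always called.

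Igfbp4, on chromosome 11 at 99041244 to 99054392, plus strand (ENSMUSG00000017493), encodes a binding protein that mostly keeps the ligand from its receptor and is cut by PAPP-A. It stood at 705, 535 and 697 CPM in the cochlea and at 972, 1135 and 1271 CPM in the vestibule, without overlap. The means were 645 CPM ± 95.8 and 1126 CPM ± 149.8 (SD, n = 3), with a fitted log2 fold change of 0.70 (SE 0.18, Benjamini-Hochberg adjusted p = 0.0207 by edgeR's QL test). Without cochlea replicate 2 (0.60, adjusted p = 0.0918) or vestibule replicate 2 (0.72, adjusted p = 0.0714) it was not called in the same test.

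Igfbp7, on chromosome 5 at 77349240 to 77408041, minus strand (ENSMUSG00000036256), encodes a protein of vessel walls that binds IGFs weakly. It stood at 19.2, 11.1 and 11.7 CPM in the cochlea and at 55.4, 37.9 and 53.9 CPM in the vestibule. Every vestibular library was well above the cochlear ones, with means of 14.02 CPM ± 4.51 and 49.1 CPM ± 9.68 (SD, n = 3). The log2 fold change was 1.70 (SE 0.24, Benjamini-Hochberg adjusted p = 0.000962 by edgeR's QL test), called in all 15 alternatives. Its exons overlap those of Polr2b on the other strand by GENCODE vM21, and the strand setting of the counting is not given in the sources used here. Polr2b itself was not called, at -0.33 (adjusted p = 0.0795 in the same test).

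Endothelial markers moved with Igfbp7: 8 of the 10 on the list were higher in the vestibule and 1 in the cochlea, and their sum was 207 to 287 CPM in the cochlear libraries and 478 to 677 CPM in the vestibular ones. Of the pericyte and smooth muscle markers, 7 of 10 were higher in the vestibule and 1 in the cochlea, with sums of 354 to 498 CPM and 460 to 569 CPM. In place of these 8 calls 4 or 5 were made without cochlea replicate 2 or vestibule replicate 1, 2 or 3. Vessel lists were not alone in this. Macrophage markers (9 of 10), melanocyte markers (6 of 7) and markers of dark cells and stria (6 of 7) were higher in the vestibule too, with 0 of each list higher in the cochlea. The part of vessels or of these other cell types in the difference of Igfbp7 was not tested.

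Igfbp6, on chromosome 15 at 102144362 to 102149511, plus strand (ENSMUSG00000023046), encodes a binding protein that prefers IGF-2. It was the member lowest in counts, with 18, 40 and 47 counts in the cochlear libraries and 148, 130 and 178 in the vestibular ones. These are 0.736, 1.39 and 1.61 CPM against 4.40, 5.06 and 6.99 CPM, so that 5 libraries reached 1 CPM. Igfbp6 thus needed the vestibular libraries, in which it is high, to pass the filter. The groups did not overlap. Its log2 fold change was the largest of the members, 2.01 (SE 0.34, Benjamini-Hochberg adjusted p = 0.00267 by edgeR's QL test), and its range over the 14 alternatives that could test it was 1.74 to 2.20, all called.

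**Figure D3:**
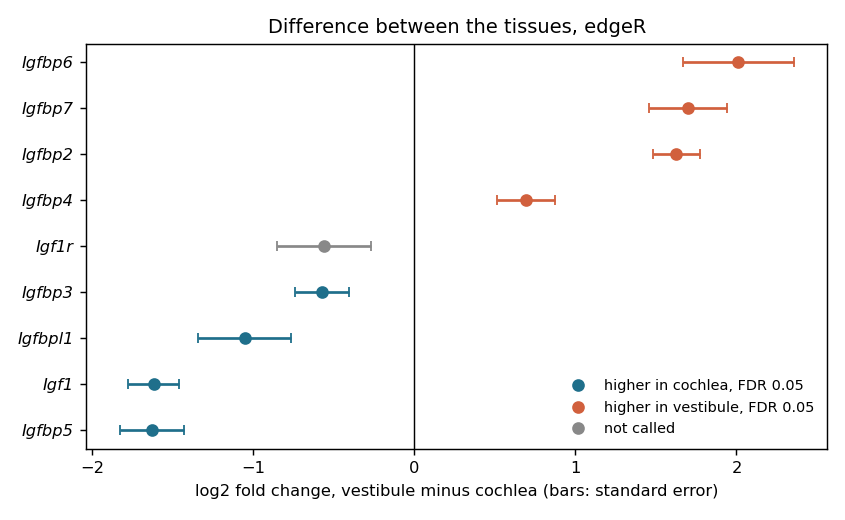
Log2 fold change of each member, vestibule minus cochlea, as points with bars of 1 SE on a log2 axis, coloured by the organ in which the gene was called higher and grey where it was not called. Values left of 0 are higher in the cochlea, and the points run from -1.63 for Igfbp5 to 2.01 for Igfbp6.

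Other cell types moved between the organs alongside the members. Mesenchymal markers summed to 5278 to 5989 CPM in the cochlea and 8125 to 9361 CPM in the vestibule, with 4 of 10 higher in the vestibule and 2 in the cochlea. Macrophage markers were higher in the vestibule for 9 of 10, at 129 to 150 CPM against 570 to 623 CPM. Markers of melanocytes (6 of 7) and of dark cells and stria (6 of 7) were higher in the vestibule too, with sums of 77.6 to 104 against 329 to 381 CPM and of 633 to 798 against 1219 to 1335 CPM. Schwann cell markers were higher in the vestibule for 4 of 8, with 806 to 990 against 1442 to 1813 CPM. Cochlear supporting cell markers were higher in the cochlea for 7 of 9 and in the vestibule for 1, with overlapping sums of 2652 to 3559 and 2504 to 2981 CPM, and neuronal markers were higher in the cochlea for 5 of 10. Cartilage and bone markers summed to 11464 to 18813 and 14257 to 17784 CPM, with 6 of 11 higher in the vestibule and 2 in the cochlea, and of red blood cell markers 0 of 6 tested were called by edgeR, DESeq2 or limma-voom and 0 had an unadjusted p under 0.05 in edgeR. The number of neuronal markers called fell to between 1 and 3 without cochlea replicate 1, cochlea replicate 2, vestibule replicate 2 or vestibule replicate 3, and 3 red blood cell markers were called without cochlea replicate 1. No defining marker of a list other than skeletal muscle was at 0 in all libraries. The part of these cell types and of hair cells in the differences of Igf1, Igfbp2, Igfbp3, Igfbp4, Igfbp5, Igfbp6, Igfbp7 and Igfbpl1 was not tested.

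Igfbp2 and Igfbp5, the leading binding protein of each organ, are neighbours. They lie on chromosome 1 on opposite strands, with their 3' ends facing each other and 5457 bases between them, and their exons do not overlap. Their log2 fold changes were 1.63 and -1.63. Among all neighbouring pairs of tested genes in which both were called, 423 of 1292 (32.7%) differed in opposite directions, and 104 of 427 (24.4%) of those under 10000 bases apart did. The promoters of the pair are shown because the genes are close, related and opposite, and each runs from 250 bases before the start of the RefSeq transcript to 50 bases after it (GRCm38.p6): chr1:72824230-72824529 on the plus strand for Igfbp2 and chr1:72874816-72875115 on the minus strand for Igfbp5. In Igfbp2 the capitals mark GGGCGG, the core of a GC box. In Igfbp5 they mark a TATA-like run, TTTAAA.
Igfbp2: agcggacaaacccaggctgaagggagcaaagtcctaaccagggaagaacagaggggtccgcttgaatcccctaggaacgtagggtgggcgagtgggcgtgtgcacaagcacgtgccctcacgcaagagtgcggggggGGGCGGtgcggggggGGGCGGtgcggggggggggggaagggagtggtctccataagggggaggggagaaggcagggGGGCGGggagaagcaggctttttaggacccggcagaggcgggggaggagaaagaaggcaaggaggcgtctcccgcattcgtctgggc
Igfbp5: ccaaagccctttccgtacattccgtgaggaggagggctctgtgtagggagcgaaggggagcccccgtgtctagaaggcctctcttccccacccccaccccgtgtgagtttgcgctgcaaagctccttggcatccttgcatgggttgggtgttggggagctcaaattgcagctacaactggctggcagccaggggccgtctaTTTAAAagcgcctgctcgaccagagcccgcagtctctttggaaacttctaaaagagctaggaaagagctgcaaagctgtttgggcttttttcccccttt
This Igfbp2 promoter holds GGGCGG at 3 places, a motif found on either strand in 35.7% of 32851 RefSeq promoters of the same length, and has a GC content of 67.0%. The table gives Igfbp2 another start further on, at chr1:72825137-72825436, in whose window GGGCGG was not found. In the Igfbp5 promoter, with a GC content of 56.3%, GGGCGG was not found, and TTTAAA begins at base -49 from the start (13.2% of all promoters). Of the 8 members with a promoter in the table, TATAAA (13.6% of all) was found in Igfbp4 at -28 and, on the opposite strand, in Igfbp6 at -148, and TATATA (5.67% of all) in Igfbp3 at -30. Counted on either strand, GGGCGG was found in Igfbp7 at 4 places and in Igf1r at 2, and none of the 4 motifs in Igf1. A match describes letters only and was not tied to the differences between organs.

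Levels of different genes were compared per length, as the RPKM of the authors' table, in which the count is scaled to the length of the gene and to the library total. In the cochlea the order by RPKM was Igfbp5 (449 ± 89.6), Igfbp2 (202 ± 2.85), Igfbp4 (146 ± 21.7), Igfbp3 (61.6 ± 7.46), Igf1 (31.1 ± 6.06), Igf1r (13.6 ± 5.35), Igfbp7 (11.6 ± 3.72), Igfbpl1 (4.08 ± 0.271) and Igfbp6 (1.13 ± 0.409), each a mean with SD over n = 3. The libraries of neighbours in that order were apart except those of Igf1r and Igfbp7, which overlapped. In the vestibule the order by RPKM was Igfbp2 (677 ± 35.8), Igfbp4 (255 ± 33.9), Igfbp5 (158 ± 9.07), Igfbp3 (44.8 ± 7.11), Igfbp7 (40.5 ± 8.0), Igf1 (11.0 ± 1.46), Igf1r (10.1 ± 2.73), Igfbp6 (4.95 ± 1.21) and Igfbpl1 (2.12 ± 0.789). Here Igfbp3 could not be told from Igfbp7, nor Igf1 from Igf1r, beyond the spread of their libraries. By this measure the ligand stood above its receptor in the cochlea, and in the vestibule their libraries overlapped.

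The place of Igf1r in these orders depends on the gene length. The authors' RPKM goes back to a length of 4480 bases for Igf1r, against 16791 bases of exons in GENCODE vM21, whereas the other 8 members have nearly the same length in both. Over the longer model the same counts of Igf1r would come to 3.62 RPKM ± 1.43 in the cochlea and 2.68 RPKM ± 0.727 in the vestibule (SD, n = 3). Which exons of Igf1r were counted is not given in the sources used here. The length is the same for both organs and cancels in the fold changes.

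The 6 binding proteins Igfbp2 to Igfbp7 were also summed. Their CPM came to 3412, 3829 and 4522 in the cochlea against 3298, 3515 and 3735 in the vestibule, 3921 ± 561 and 3516 ± 218 (SD, n = 3). The sums overlapped, with a ratio of 0.897, vestibule over cochlea. Per length the order turned: 789, 848 and 980 RPKM in the cochlea lay below 1128, 1153 and 1262 RPKM in the vestibule, a ratio of 1.35. The lengths behind these values were 5995 bases for Igfbp5 and 1844 bases for Igfbp2.

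The make-up of that sum differed too. Igfbp5 held 45.3%, 53.6% and 54.7% of the summed RPKM in the cochlear libraries and 13.6%, 14.6% and 12.1% in the vestibular ones. Igfbp2 held 25.2%, 24.0% and 20.8% in the cochlea against 58.9%, 56.4% and 56.9% in the vestibule. The organs were thus led by different binding proteins in every library: in the cochlea Igfbp5 stood at 1.80, 2.23 and 2.63 times Igfbp2 per length, and in the vestibule Igfbp2 at 4.34, 3.86 and 4.71 times Igfbp5. Igfbp4 held 16.9% ± 3.04 and 21.6% ± 1.77, and Igfbp3 7.06% ± 0.192 and 3.78% ± 0.362 (SD, n = 3). Igfbp7 held 1.36% ± 0.564 and 3.43% ± 0.675 (SD, n = 3), and Igfbp6 0.127% ± 0.0367 and 0.416% ± 0.0755.

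**Figure D4:**
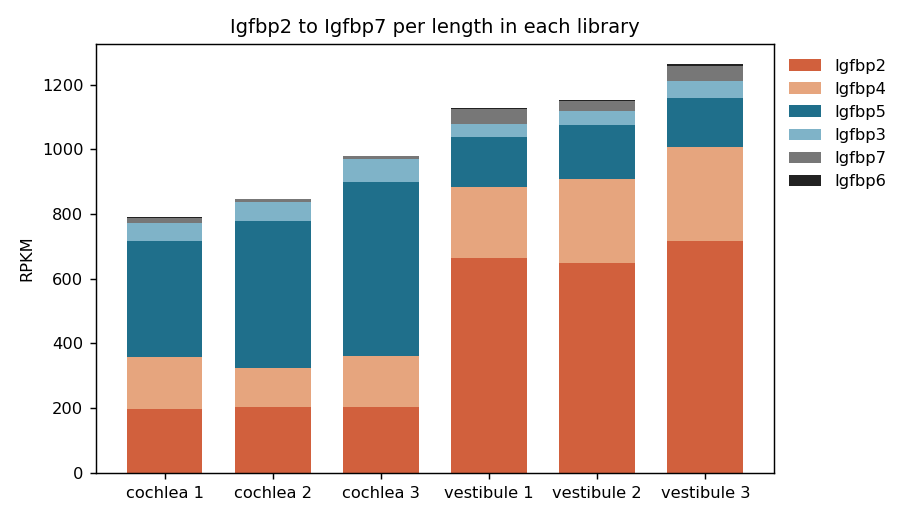
RPKM of Igfbp2 to Igfbp7 stacked by gene, 1 bar for each of the 6 libraries. The bars reach 789 to 980 RPKM in the cochlea, with Igfbp5 filling 45.3% to 54.7% of each, and 1128 to 1262 RPKM in the vestibule, with Igfbp2 filling 56.4% to 58.9%.

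Set against the ligand, summed binding protein RPKM per RPKM of Igf1 was 22.9, 35.2 and 28.2 in the cochlea against 95.1, 97.5 and 135 in the vestibule. The means, 28.8 ± 6.15 and 109 ± 22.7 (SD, n = 3), differed 3.80-fold, and no library overlapped. Igf2, which encodes a ligand too, is not in this ratio, and its means were 1256 CPM in the cochlea and 801 CPM in the vestibule. The ratio follows the RPKM of Igf1, at 0.354 vestibule over cochlea, more than the binding protein sum, at 1.35. It is of transcripts, is not a balance to all IGF ligands and is a description with no test.

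The share of the wider pathway that was called lay close to that of all genes. Of 86 further genes in 7 lists, 78 were tested, 10 were higher in the cochlea, 11 in the vestibule, together 26.9% of those tested beside the 27.4% of all genes. Their median size of log2 fold change was 0.30, beside 0.32 over all genes.

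Among 8 other ligands, receptors and carriers, 4 were tested. Igf2, the fetal growth factor of the family, was higher in the cochlea, at 1039, 1481 and 1248 CPM against 682, 926 and 794 CPM (log2 fold change -0.77, SE 0.21, Benjamini-Hochberg adjusted p = 0.0231 by edgeR's QL test). Igfals, the acid-labile subunit that holds IGFs in a large blood complex, was higher in the vestibule at a low level, 0.552 CPM ± 0.0895 against 1.78 CPM ± 0.151 (SD, n = 3; 1.55, adjusted p = 0.00256 in the same test). Igfals reached 1 CPM in the 3 vestibular libraries only, so it was tested only through the organ in which it is high and its call carries no weight of its own. Igf2r, which clears IGF-2, and Insr, the insulin receptor, were not called, at -0.25 and 0.16. Without vestibule replicate 1 or vestibule replicate 2, neither Igf2 nor Igfals was called, and without cochlea replicate 2 or vestibule replicate 3 only 1 gene of the list was.

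Next came the proteases that cut binding proteins, with their inhibitors. Of 12 tested, 3 were higher in the cochlea, 3 in the vestibule. Pappa2, which cuts IGFBP-3 and IGFBP-5, stood at 59.4, 95.0 and 71.9 CPM in the cochlea and at 12.1, 7.32 and 4.36 CPM in the vestibule. Its log2 fold change was -3.39 (SE 0.34, Benjamini-Hochberg adjusted p = 0.000156 by edgeR's QL test), in the same direction as those of Igfbp3 and Igfbp5. Plau, the urokinase plasminogen activator (1.18 CPM ± 0.399 against 6.33 CPM ± 0.398, SD, n = 3), and Adam12, a metalloprotease (2.48 CPM ± 0.227 against 10.6 CPM ± 3.39), were higher in the vestibule, by 2.32 and 1.96 (adjusted p = 0.000336 and 0.000486 in the same test). At 1.64, 0.903 and 0.992 CPM in the cochlea, Plau passed the filter only through the vestibular libraries, so its call carries no weight of its own.

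For the genes inside the cell the calls depended on the tool. DESeq2 called 5 receptor adaptors, 4 genes of the PI3K-Akt branch and 6 of the Ras-MAPK branch, where edgeR called 3, 2 and 3, and 8 of the 16 Ras-MAPK genes had an unadjusted p under 0.05 in edgeR. Of 12 receptor adaptors tested 3 were called. Irs4 also passed the filter only through the vestibular libraries, at 1.54, 1.13 and 1.22 CPM against 0.0818, 0.174 and 0.240 CPM in the cochlea, so that its fitted value (2.80, Benjamini-Hochberg adjusted p = 0.00076 by edgeR's QL test) is a description. Grb14 and Grb10, adaptors that hold back insulin and IGF receptor signalling, were higher in the cochlea (-1.16 and -0.73, adjusted p = 0.000379 and 0.0071). In the PI3K-Akt branch, 23 of 25 genes were not called. Foxo1, a transcription factor that Akt keeps out of the nucleus, was higher in the vestibule (0.65, adjusted p = 0.00374 in the same test), and without vestibule replicate 2 only 1 gene of the branch was called. Of 16 genes in the Ras-MAPK branch, Nras was higher in the cochlea (-0.58, adjusted p = 0.00531 in the same test), and Spry1 and Dusp6, feedback inhibitors, were higher in the vestibule (0.96 and 0.65, adjusted p = 0.0034 and 0.00457), and without cochlea replicate 3 or vestibule replicate 3 the branch had 5 calls. Of the 3 IGF2BP RNA-binding proteins, 0 were called by edgeR, DESeq2 or limma-voom, and 0 had an unadjusted p under 0.05 in edgeR.

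Of 6 other secreted proteins with an IGFBP domain that were tested, 2 were higher in the cochlea, 3 in the vestibule. Ccn3, a matricellular protein, was higher in the cochlea, at 216, 209 and 268 CPM against 25.5, 25.5 and 23.3 CPM (-3.34, SE 0.14, Benjamini-Hochberg adjusted p = 3.47e-06 by edgeR's QL test). Its relatives Ccn2 and Ccn1 were higher in the vestibule (1.78 and 1.73, adjusted p = 0.0354 and 0.0102 in the same test), and both were raised most by vestibule replicate 3, in which Ccn2 stood at 280 CPM against 70.2 and 90.4 CPM in the other vestibular libraries.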

How the data were processed

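RNA-seq was run on 3 cochlear and 3 vestibular libraries, and every library was used. Per the submitters' processing notes, the authors used TopHat2 2.1.0, SAMtools 0.1.18, HTSeq 0.5.4p5 and edgeR 3.4.2 with GRCm38. They deposited whole counts per Ensembl gene without normalization, and a table of log2 RPKM for genes past a filter, which carries no TMM scaling. The strand setting of the counting is not given in the sources used here. Summary lines, 18.5% to 20.6% of listed counts, were left out.

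Counts were tested with edgeR 4.0.16 (quasi-likelihood test, TMM) in R 4.3.3 over genes with at least 1 CPM in 3 libraries, with Benjamini-Hochberg adjustment at 0.05, and the procedure was checked on simulated data. Alternatives were other scalings and filters, DESeq2 1.42.0, limma-voom (limma 3.58.1), a threshold of 0.1 with a fold change of 1.3, a replicate block and leaving out each library. RPKM came from the deposited log2 RPKM. Gene positions are from GENCODE vM21, not the release counted on. Patterns for nearest genes used log2 CPM with a prior count of 0.5.

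The members and lists were chosen with earlier results of these data known. Named were all members, the called genes of each pathway list with at most 3 of the largest change, and the 3 genes nearest to Igf1 and to Igf1r. For 1 called gene no result is given here. Figures were drawn with matplotlib 3.10.9.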

Additional observations from a re-analysis of the deposited data

How the results depend on the processing

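No member changed direction in any of the 15 alternatives to its fit (14 for Igfbp6, which is not tested when 1 CPM is asked of all 6 libraries). Igf1, Igfbp2, Igfbp5, Igfbp6 and Igfbp7 were called in every one of these. Igfbp4 was called in 12, Igfbpl1 in 10, Igfbp3 in 8 and Igf1r in 1. On leaving out 1 library, the members called ranged from 5 (without cochlea replicate 2 or vestibule replicate 2) to 8, those higher in the cochlea from 2 to 4 and those higher in the vestibule from 3 to 4. All genes called then ranged from 2267 (without vestibule replicate 2) to 4557 (without cochlea replicate 3), with 925 to 1863 higher in the cochlea and 1342 to 2694 higher in the vestibule. Without TMM scaling the median over all genes moved to 0.13 (log2), and the share of calls higher in the vestibule was 68.8% in place of 57.6%. Summed over Igfbp2 to Igfbp7, the vestibule-to-cochlea ratio was 1.35 per length in place of 0.897. Other pathway genes called numbered 16 to 28 over the alternatives.

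The main fit used no pairing of libraries. Deviations of same-numbered cochlear and vestibular libraries correlated at -0.18, -0.26 and -0.48. With 3 libraries per tissue, and long genes departing from the tissue mean in most of them, these values cannot decide whether libraries were paired. With a replicate block, 5 members were called, 2 of them higher in the cochlea (Igfbp3, Igfbp4 and Igfbpl1 lost the call, at adjusted p = 0.0556, 0.0810 and 0.0528 in edgeR's quasi-likelihood test), and 2618 of all genes, 1009 of them higher in the cochlea.

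With 3 pooled libraries per tissue, differences of the size of Igfbp3 (-0.57), Igfbp4 (0.70) and Igfbpl1 (-1.05) passed or missed the threshold with 1 library more or less. The member lowest in counts, Igfbp6, rested on 18 to 178 counts per library. These counts cover counting error only.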
